A study of Mus musculus with 6 samples.

Results

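Apolipoproteins are the protein components of the particles that carry cholesterol and triglycerides in blood. The large, nonexchangeable *Apob* forms the backbone of VLDL, LDL and chylomicrons, while small exchangeable members such as *Apoa2* and *Apoa4* move between particles. Hepatocytes, and for *Apob* and *Apoa4* also enterocytes, make most of them, whereas the apolipoprotein L family, to which *Apol6* belongs, acts largely inside cells and is transcribed in many tissues. Adipose tissue is a site where lipoprotein triglyceride is hydrolysed and taken up rather than a main source of these particles.

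Expression of apolipoprotein genes was examined in inguinal white adipose tissue (iWAT). The genes were chosen by symbol, and 6 of 10 were measured, out of a table of 37024 rows. These are *Apoa2*, *Apoa4*, *Apob*, *Apoh* and *Apof*, which are typical products of liver or gut, and *Apol6*. *Apoa1*, *Apoc1*, *Apoc3* and *Apod* were not analysed here, so that *Apol6* was the only measured gene of the 3 that the selection set apart as made in fat. The selection had named AdWT replicate 3 and AdKO replicate 3 as the libraries with high levels of the liver-made genes, and the order of the libraries is therefore given as a description, without a test.

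The 6 libraries came from iWAT of mice on a C57BL/6 background fed a Western diet (WD) for 12 weeks. In 3 of them, labelled *Lexis*-AdKO, a floxed *Lexis* allele was crossed with Adipoq-cre, which acts in adipocytes and leaves the allele intact in the other cells of the depot. The other 3, labelled *Lexis*-AdWT, were from littermates with the floxed allele and no Cre, so that both groups shared the floxed allele and the diet. *Lexis* is a long noncoding RNA, and the question addressed by the comparison is what its loss from adipocytes changes in iWAT. Sex and age of these 6 mice are not given in the sources used here.

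The total count ranged from 14470542 to 17882713 per library, and the limit set by an observed 0, taken as 3 counts, corresponds to between 0.179 and 0.206 CPM (counts scaled by TMM to a library of 1e+06). The gene *4930412L05Rik*, under which *Lexis* is listed (chr4:53217938-53230729, NCBIM37, minus strand), was counted 8, 9 and 8 times in AdWT and 21, 11 and 13 times in AdKO. Its count was thus no lower under the AdKO label, the table does not separate the deleted from the kept part of the gene, and every direction given here rests on the labels. Markers of white adipocytes were high in every library, with 7 of 10 listed genes measured and a summed level of 41403 to 54686 CPM, although *Pnpla2*, a lipase of adipocytes, was listed at 0 throughout. Because RNA came from bulk tissue, fewer cells of a type and less RNA per cell cannot be told apart. The 3 libraries of a group are called biological replicates in the study, and *p* values measure the spread between them.

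The promoter sequences of the liver-made genes are shown because these genes moved together over the libraries. RefSeq promoter windows (GRCm38.p6) were found for 4 of the 6 genes, and the 250 bases before the start site are given, 5′ to 3′ on the gene's strand. *Apoa2* lies at chr1:171224804-171225053, from the downstream of its 2 listed start sites, *Apob* at chr12:7977427-7977676, *Apoh* at chr11:108395047-108395296 and *Apoa4* at chr9:46240594-46240843, all on the plus strand. Capitals mark the exact matches, on either strand, to the 4 motifs described after the sequences.
Apoa2: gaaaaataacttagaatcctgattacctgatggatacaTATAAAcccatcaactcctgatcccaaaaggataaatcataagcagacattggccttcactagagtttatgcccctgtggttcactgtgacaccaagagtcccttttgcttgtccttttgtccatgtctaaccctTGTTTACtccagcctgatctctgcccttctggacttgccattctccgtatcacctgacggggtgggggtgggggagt
Apob: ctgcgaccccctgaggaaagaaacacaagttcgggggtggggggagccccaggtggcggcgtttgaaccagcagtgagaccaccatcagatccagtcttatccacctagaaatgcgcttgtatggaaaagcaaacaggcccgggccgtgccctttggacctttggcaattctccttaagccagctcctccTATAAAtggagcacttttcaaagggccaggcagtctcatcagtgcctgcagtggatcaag
Apoh: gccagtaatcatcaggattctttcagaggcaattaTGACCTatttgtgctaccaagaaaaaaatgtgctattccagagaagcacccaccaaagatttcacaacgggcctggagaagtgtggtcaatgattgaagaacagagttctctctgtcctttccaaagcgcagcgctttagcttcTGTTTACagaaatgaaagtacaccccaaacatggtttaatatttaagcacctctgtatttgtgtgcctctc
Apoa4: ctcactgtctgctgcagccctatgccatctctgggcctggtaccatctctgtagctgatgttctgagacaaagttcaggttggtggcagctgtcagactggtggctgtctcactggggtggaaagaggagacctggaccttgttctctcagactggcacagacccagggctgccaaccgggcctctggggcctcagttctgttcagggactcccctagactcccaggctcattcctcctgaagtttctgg

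The 4 motifs searched were the FOXA-type core TGTTTAC, the nuclear receptor core AGGTCA, an HNF4-type site CAAAGTCCA and the TATA box TATAAA. None of these motifs shares its matched bases with another in the windows shown. The FOXA-type core was found 77 bases before the start site of *Apoa2* and 71 bases before that of *Apoh*, and 3.17% of 32851 promoter windows of the same length hold it. TATAAA was found 60 bases before the start site of *Apob* and 212 bases before that of *Apoa2*, against 12.4% of all windows. AGGTCA was found, on the minus strand 215 bases before the start site, in the *Apoh* window alone (14% of all windows), while the HNF4-type letters (0.384% of all) were in none of the 4. No motif matched in the *Apoa4* window. A match is a description of letters and does not show that a factor binds there.

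*Apoa2*, a major protein of HDL, varied widely between libraries. Its counts were 44, 228 and 3031 in AdWT replicates 1, 2 and 3, and 89, 149 and 1379 in AdKO replicates 1, 2 and 3. This corresponds to 2.88, 13.6 and 203 CPM in AdWT and 6.12, 9.81 and 82.9 CPM in AdKO. The 2 libraries with replicate number 3 were far above the other 4, in which the groups were interleaved, and the highest level was 70.4-fold the lowest.
*Apob* had 32, 70 and 1058 counts in AdWT and 15, 42 and 427 in AdKO. In CPM these are 2.09, 4.18 and 70.8 against 1.03, 2.77 and 25.7, a span of 68.7-fold, and again the 2 libraries of replicate 3 were the highest. A second row under the symbol *Apob* was at 0 in every library.
*Apoh*, or β2-glycoprotein I, a plasma protein that binds anionic phospholipids, had 11, 48 and 517 counts in AdWT and 11, 35 and 396 in AdKO. Its levels were 0.720, 2.87 and 34.6 CPM against 0.756, 2.31 and 23.8 CPM. Replicate 1 of both groups was lowest and replicate 3 of both was highest.
*Apof*, which modulates cholesteryl ester transfer between lipoproteins, had 6, 15 and 141 counts in AdWT and 3, 4 and 102 in AdKO. The levels were 0.393, 0.897 and 9.43 CPM against 0.206, 0.263 and 6.13 CPM, and the value of AdKO replicate 1 is at the limit that a count of 0 allows.
*Apoa4*, an apolipoprotein that the gut and liver make in response to dietary lipid, had 4, 10 and 877 counts in AdWT and 4, 36 and 74 in AdKO. In CPM these are 0.262, 0.598 and 58.7 against 0.275, 2.37 and 4.45, the widest span of the 6 genes at 224-fold. Only AdWT replicate 3 stood far apart for *Apoa4*, since AdKO replicate 3 was 1.88-fold above the next library, against between 6.08-fold and 8.29-fold for the other 4 genes.

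**Figure D1:**
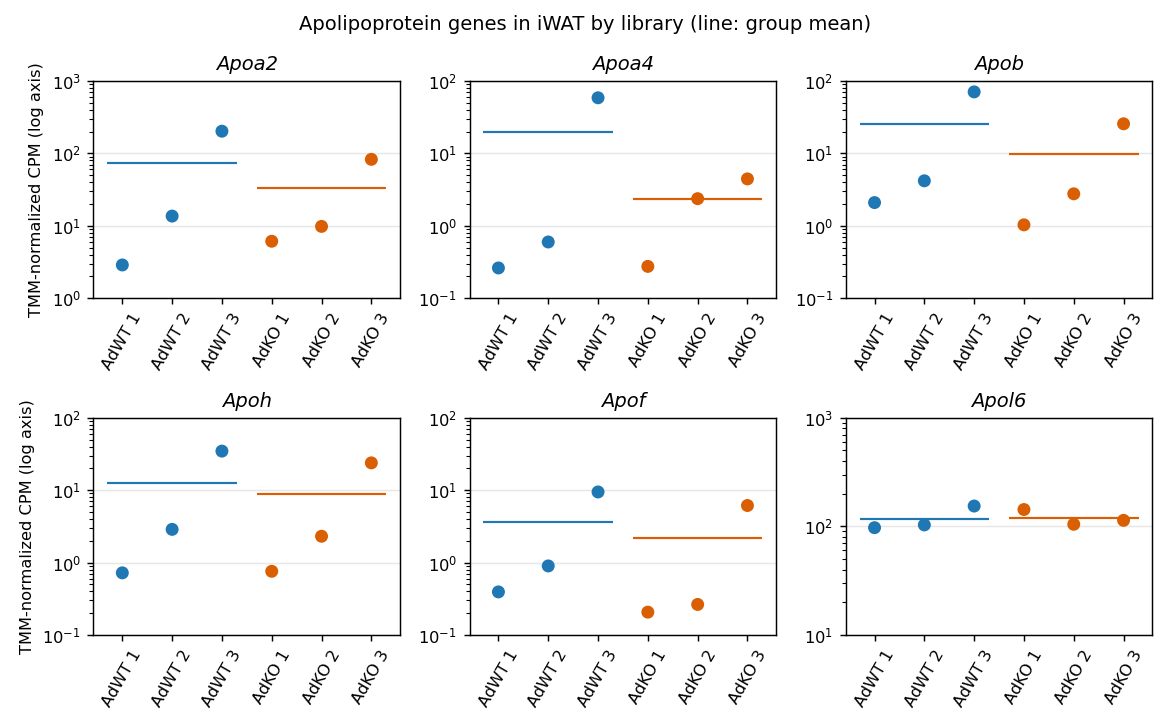
TMM-normalized CPM (log axis, ranges differ between panels) of the 6 measured apolipoprotein genes in each library, with AdWT in blue, AdKO in orange and a line at each group mean (n = 3). For the 5 liver-made genes replicate 3 of each group is the highest of its group, while *Apol6* stays between 97.2 and 154 CPM.

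Summed over the 5 genes, the level was 376 CPM in AdWT replicate 3, 143 CPM in AdKO replicate 3 and between 6.35 and 22.2 CPM in the other 4 libraries. AdWT replicate 3 held 65.6% of the sum over all libraries and AdKO replicate 3 held 24.9%. Even in AdWT replicate 3, the 5 genes together made up 0.0367% of the total count. Per gene, AdWT replicate 3 carried between 88.0% (*Apof*) and 98.6% (*Apoa4*) of the summed CPM of its group, and AdKO replicate 3 between 62.7% (*Apoa4*) and 92.9% (*Apof*). Of the 9872 rows tested, these 2 libraries were the highest pair in 643 (6.51%), and in all 5 of the liver-made genes.

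To compare levels between the 6 genes, CPM was divided by the summed exon length in NCBIM37. In AdWT replicate 3, *Apoa2* reached 378 CPM per kilobase, *Apoa4* 32.3, *Apoh* 21.7, *Apob* 5.08 and *Apof* 4.89. In AdKO replicate 3 the order was *Apoa2* at 154 CPM per kilobase, *Apoh* at 14.9, *Apof* at 3.18, *Apoa4* at 2.45 and *Apob* at 1.84. *Apoa2* was thus the highest of the liver-made genes per length in both, while *Apoa4* was next after it in AdWT replicate 3 and below *Apoh* and *Apof* in AdKO replicate 3. *Apol6* lay between 21.6 and 34.2 CPM per kilobase in all 6 libraries, above *Apoa2* in AdWT replicate 1 (5.36), AdKO replicate 1 (11.4) and AdKO replicate 2 (18.3), and below it in the others. Which transcripts the authors counted is not given in the sources used here, so these lengths are approximate.

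The makeup of the summed counts differed between libraries. *Apoa4* made up 15.6% of the counts of the 5 genes in AdWT replicate 3 (877 of 5624, exact 95% interval 14.7% to 16.6%) and 13.5% in AdKO replicate 2 (36 of 266, 9.66% to 18.2%). In AdKO replicate 3 its share was 3.11% (74 of 2378, 2.45% to 3.89%) and in AdWT replicate 2 it was 2.70% (10 of 371, 1.30% to 4.90%). These intervals, which cover counting error only, do not overlap between the former and the latter pair, and each pair holds a library of each group. *Apob* ranged from 12.3% in AdKO replicate 1 (7.05% to 19.5%) to 33.0% in AdWT replicate 1 (23.8% to 43.3%). *Apoa2* ranged from 45.4% in AdWT replicate 1 to 73.0% in AdKO replicate 1 (64.2% to 80.6%), the latter above the interval of AdWT replicate 3 (52.6% to 55.2%).

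**Figure D2:**
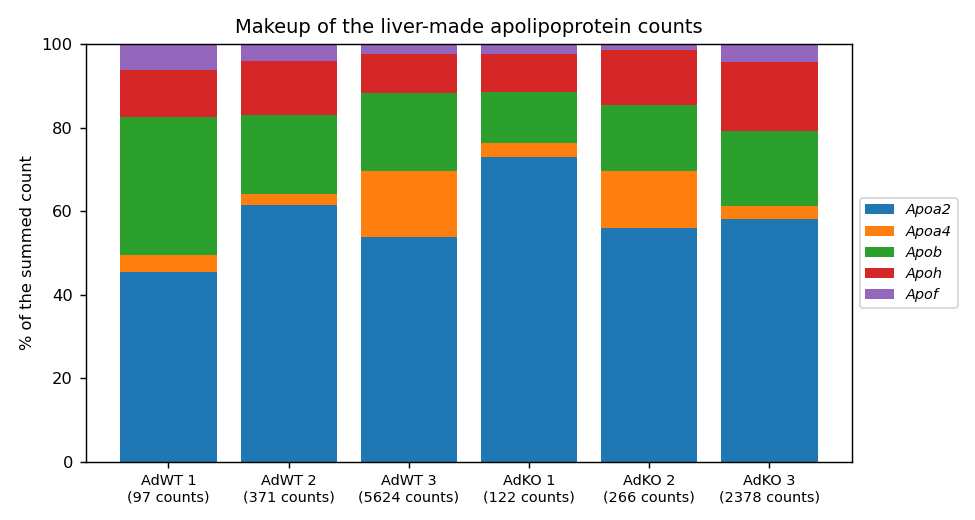
Share of each of the 5 liver-made genes in their summed count (y axis, %), for each library, with the summed count under its name. *Apoa4* takes 15.6% in AdWT replicate 3 and 13.5% in AdKO replicate 2, against 4.12% or less in the other 4.

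The ratio of AdWT replicate 3 to AdKO replicate 3 was highest for *Apoa4* among the 5 genes. It was 13.2 for *Apoa4* (exact 95% counting interval 10.4 to 17), 2.76 for *Apob*, 2.45 for *Apoa2*, 1.54 for *Apof* and 1.45 for *Apoh*. Over the 12 genes of a hepatocyte list with at least 60 counts in these libraries together, the ratio lay between 1.13 and 3.70, with a median of 1.80. Each ratio compares single libraries and not the genotypes.

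**Figure D3:**
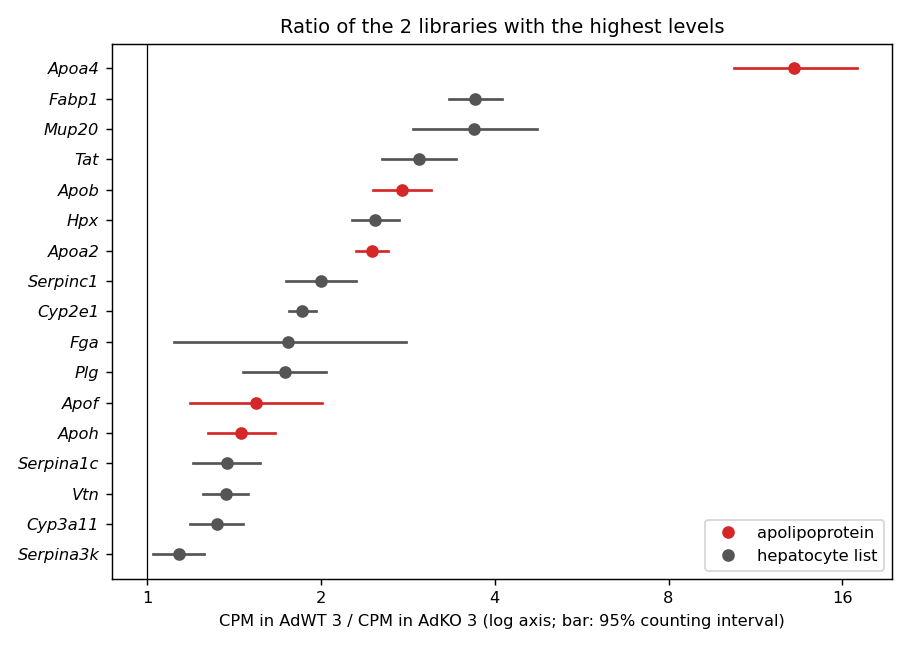
CPM in AdWT replicate 3 divided by CPM in AdKO replicate 3 (x axis, log scale) for the 5 liver-made apolipoprotein genes (red) and 12 genes of the hepatocyte list (grey), with exact 95% counting intervals. Only genes of that list with at least 60 counts in these libraries together are shown. *Apoa4*, at 13.2, lies beyond the highest of the 12, *Fabp1* at 3.70.

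Genes typical of hepatocytes moved with the liver-made apolipoproteins. Of 27 listed genes 17 were measured, 3 of them at 0 in every library (*Serpina1a*, *Serpina1b* and *Itih1*), and 14 had at least 10 counts in total. AdWT replicate 3 was highest in all 14, and AdKO replicate 3 was the next in 11, the exceptions including *Vtn* and *Kng1*. *Fabp1*, the fatty acid-binding protein of liver and gut, had 28, 123 and 1479 counts in AdWT and 24, 77 and 445 in AdKO. *Cyp3a11*, a hepatic cytochrome P450, had 3, 20 and 760 counts against 13, 28 and 642. *Serpinc1*, which encodes antithrombin, had 21, 51 and 565 against 17, 30 and 315. *Vtn* and *Cyp2e1*, which had at least 657 counts in each library, spanned only 1.80-fold and 2.66-fold from the lowest to the highest library. Without them, the list summed to 467 CPM in AdWT replicate 3, 232 CPM in AdKO replicate 3 and between 16.7 and 43.1 CPM in the other 4. The sum of the 5 apolipoproteins was 0.331 to 0.806 times that sum over the libraries. The part of hepatocyte RNA in the levels of these genes was not tested.
Of 7 listed enterocyte genes 4 were measured. *Sis* and *Cdx1* were at 0 in every library, and *Cdh17* had 1 count in AdWT replicate 3 and 1 in AdKO replicate 2. *Vil1* had 24, 17 and 16 counts in AdWT and 15, 21 and 8 in AdKO. Since *Pnpla2* and 3 hepatocyte genes were also at 0 in every library, a 0 in this table does not show that a gene was absent, and the part of gut RNA in the level of *Apoa4* was not tested.
Markers of epithelium were also highest in these 2 libraries, in the reverse order. All 6 measured genes of that list were highest in AdKO replicate 3 and next in AdWT replicate 3, with sums of 53.1 and 22.5 CPM against 1.83 to 2.68 CPM elsewhere. *Krt18*, a keratin of simple epithelia that hepatocytes also express, had 333 counts in AdKO replicate 3 and 173 in AdWT replicate 3, while *Epcam* had 216 and 20. The summed level of macrophage markers was 470 CPM in AdWT replicate 3, the lowest, and 1564 CPM in AdKO replicate 3, the highest, of which *Gpnmb* made 785 CPM. AdKO replicate 3 was highest in 2 of the 6 macrophage genes with at least 10 counts. The part of these cells was not tested.

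**Figure D4:**
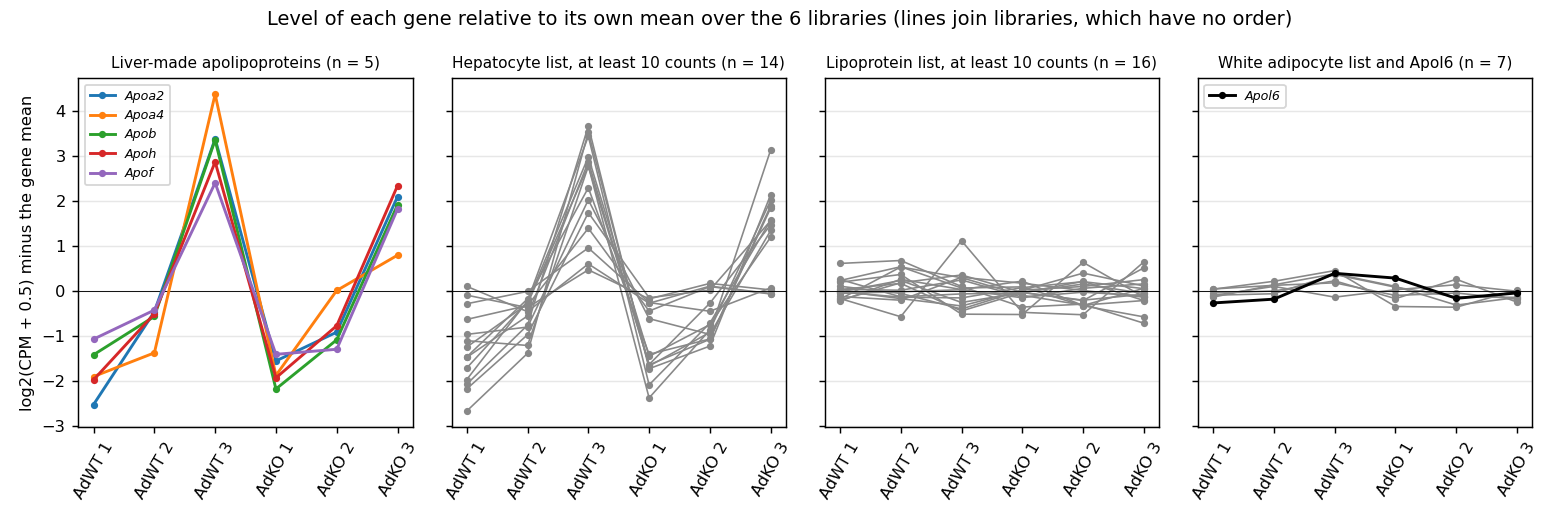
log2(CPM + 0.5) of each gene minus its own mean over the 6 libraries (y axis), for the 5 liver-made apolipoproteins, 14 hepatocyte genes, 16 genes of lipoprotein handling, and 6 adipocyte genes with *Apol6* in black. The 5 apolipoproteins and most hepatocyte genes are highest in AdWT replicate 3 and AdKO replicate 3, while *Apol6* and 4 of the 6 adipocyte genes are highest in AdWT replicate 3 and have no such rise in AdKO replicate 3.

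AdKO and AdWT were compared by edgeR's quasi-likelihood test over 9872 rows, all 6 genes included. None of the 6 had a Benjamini-Hochberg adjusted *p* under 0.05, against 0 (0%) of all rows, and 0 of 6 had an unadjusted *p* under 0.05, against 5.73% of all rows (2.76% higher and 2.98% lower in AdKO). These are 272 rows higher and 294 lower, and 313 higher and 162 lower without scaling factors. In DESeq2 no gene of the 6 passed either, and it gave no *p* for *Apoa4* and *Apob*. The groups overlapped in all 6 genes, and they did not overlap in 11.9% of rows tested. For the 5 liver-made genes this overlap followed from the selection, which had named a high library in each group, and is not a result. The median log2 fold change (log2FC, AdKO over AdWT, given with its standard error, SE) was -0.90 over the 6 genes and 0.01 over all rows.
*Apoa2* measured 73.1 ± 112 CPM (SD, n = 3) in AdWT and 32.9 ± 43.3 CPM (SD, n = 3) in AdKO, a log2FC of -1.14 (SE 1.45, edgeR adjusted *p* = 0.894). *Apoa4* measured 19.8 ± 33.6 CPM against 2.36 ± 2.09 CPM, with a log2FC of -3.04 (SE 1.74, edgeR adjusted *p* = 0.853). For *Apob* the log2FC was -1.37 (SE 1.45), for *Apof* -0.66 (SE 1.37) and for *Apoh* -0.49 (SE 1.45), with adjusted *p* from 0.885 to 0.962 in the same edgeR test. Two-sided exact permutation tests of log2(CPM + 0.5) gave *p* from 0.5 to 0.9 for the 5 genes, where 0.1 is the smallest that 3 replicates against 3 allow. In each of the 5 genes the SD of AdWT was larger than its mean.
The direction of these differences followed single libraries. Without AdWT replicate 3 all 5 were higher in AdKO, by log2FC values of 1.98 for *Apoa2*, 2.43 for *Apoa4*, 1.64 for *Apob*, 2.30 for *Apoh* and 1.76 for *Apof*. Without AdKO replicate 3 all 5 were lower, between -3.88 (*Apoa4*) and -3.04 (*Apoh*). With both left out, *Apoa4* and *Apof* no longer passed the filter on low counts, and the log2FC was -0.06 (SE 0.651) for *Apoa2*, -0.72 (SE 0.538) for *Apob* and -0.24 (SE 0.746) for *Apoh*.

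**Figure D5:**
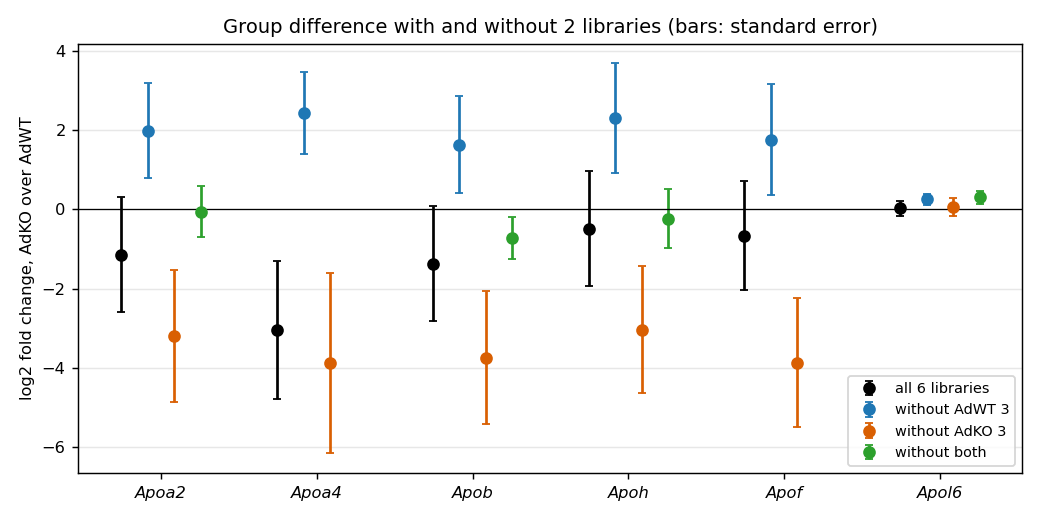
log2FC of AdKO over AdWT (y axis, points with SE) for the 6 genes in edgeR, with all libraries (black), without AdWT replicate 3 (blue), without AdKO replicate 3 (orange) and without both (green, not available for *Apoa4* and *Apof*). The 5 liver-made genes move from 1.64 or more to -3.04 or less, while *Apol6* stays between 0.03 and 0.30.

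*Apol6*, a member of the apolipoprotein L family, which holds interferon-induced genes, behaved differently. Its counts were 1485, 1724 and 2298 in AdWT and 2077, 1585 and 1889 in AdKO, or 97.2, 103 and 154 CPM against 143, 104 and 114 CPM. AdWT replicate 3 was the highest and AdKO replicate 1 the next, and the highest level was 1.58-fold the lowest. The group means were 118 ± 31.1 CPM and 120 ± 20.1 CPM (SD, n = 3), a log2FC of 0.03 (SE 0.194, edgeR adjusted *p* = 0.983), and the two-sided exact permutation test gave *p* = 0.8. With both replicates 3 left out, it was 0.30 (SE 0.158). Its other row had 227, 266 and 212 counts in AdWT and 240, 213 and 230 in AdKO, and how reads were divided between the rows is not given in the sources used here. *Mb*, the myoglobin gene that overlaps *Apol6* on the opposite strand, had between 0 and 3 counts per library in the highest of its 3 rows. As other muscle genes were counted in the same libraries, with *Ckm* at 87, 576 and 29 in AdWT, the low count of *Mb* does not show how many reads of the overlap were its own.
Of 12 listed interferon-induced genes 7 were tested, 2 higher and 5 lower in AdKO, their median log2FC being -0.05 and none at an unadjusted *p* under 0.05. The sum of that list was highest in AdWT replicate 1 (469 CPM), where *Apol6* was lowest.

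The genes lie apart from each other in the genome (NCBIM37, plus strand for all 6), *Apoa2* (ENSMUSG00000005681.6) at chr1:173155185-173156510, *Apoa4* (ENSMUSG00000032080.6) at chr9:46048779-46051542 and *Apob* (ENSMUSG00000020609.8) at chr12:7984454-8023641. *Apoh* (ENSMUSG00000000049.5) lies at chr11:108204668-108275710, *Apof* (ENSMUSG00000047631.2) at chr10:127705053-127707207 and *Apol6* (ENSMUSG00000033576.5) at chr15:76875159-76887537. The 5 liver-made genes are thus on 5 different chromosomes. *Apoh* overlaps *Prkca* on the opposite strand and *Gm11656* on its own strand, and *Apoa4* overlaps *Gm10680* on the opposite strand, so that the counts of *Apoh* and *Apoa4* are uncertain to that extent. The library kit keeps strand, but whether the counting used it is not given in the sources used here.
The rows most like each gene were sought by Pearson's *r* of log2(CPM + 0.5) over the 6 libraries among all rows tested. They were *Ces1c* (0.997), *Tat* (0.991) and *Rrp9* (0.990) for *Apoa2*, *Ugt2b1* (0.997), *Cyp2d26* (0.996) and *Azgp1* (0.995) for *Apob*, and *Ugt2b5* (0.996) and *Ces1c* (0.993) for *Apoh*. *Apof* was most like *Rdh7* (0.996), *Hamp* (0.995) and *P2rx5* (0.993). *Apoa4* was most like *Ftcd* (0.999), *Abcc6* (0.983) and *Sec14l2* (0.983). *Hamp* encodes hepcidin, *Tat* and *Ftcd* encode enzymes of amino acid catabolism in liver, and *Ces1c* encodes a carboxylesterase that the liver secretes. Such an *r* ignores the size of the change, and *Rrp9* ranged only from 461 to 570 counts while *Apoa2* ranged from 44 to 3031. For *Apol6* the rows were *Katnal1* (0.989), *Plcl1* (0.986) and *Fbxo38* (0.985). With 6 libraries, 2 of them far above the others for the liver-made genes, these values describe the libraries and carry no test.

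Other apolipoprotein genes were read from a list of 20, of which 16 were measured and 3 could be tested. *Apobr*, the receptor for apolipoprotein B48 on macrophages, had between 39.9 and 66.3 CPM, and *Apold1*, an endothelial gene, between 19.0 and 37.9 CPM. Their log2FC values were 0.23 (SE 0.190) and 0.23 (SE 0.227). *Apol10b*, another apolipoprotein L gene, had between 10.6 and 17.3 CPM and a log2FC of -0.05 (SE 0.228). None of the 3 had an unadjusted *p* under 0.05, and their median was 0.23. *Apom*, an HDL protein made in liver and kidney, did not pass the filter, with 5, 5 and 32 counts in AdWT and 2, 4 and 35 in AdKO, and thus had the same 2 highest libraries as the 5 genes above. *Apoa5*, a liver activator of lipoprotein lipase, had between 0 and 4 counts. *Apol7a*, *Apol8*, *Apol11b* and *Apoo* were at 0 in every library.

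The genes that assemble, remodel or take up lipoproteins were read from a list of 22, of which 14 could be tested, 7 higher and 7 lower in AdKO (median log2FC -0.01). Their levels did not follow the order of the liver-made apolipoproteins, apart from *Lcat*. *Lcat*, the liver-made enzyme that esterifies cholesterol on HDL, had 63, 50 and 161 counts in AdWT and 47, 47 and 127 in AdKO. *Mttp*, which loads lipid onto *Apob* in cells that secrete it, had between 14 and 21 counts in every library, while the count of *Apob* went from 15 to 1058.
The 4 genes of the list with the highest mean CPM, which is not divided by length, were *Lpl*, the lipase that hydrolyses particle triglyceride, at 9292 to 13049 CPM, the endocytic receptor *Lrp1* at 2942 to 3780 CPM, the phospholipid transfer protein *Pltp* at 1053 to 1306 CPM and the cholesterol exporter *Abca1* at 736 to 1102 CPM. Their log2FC values were 0.03 (SE 0.153), 0.22 (SE 0.0929), 0.04 (SE 0.0966) and -0.03 (SE 0.168). None of the 14 had an adjusted *p* under 0.05 in edgeR, and 1 had an unadjusted *p* under 0.05, against 5.73% of all rows tested. This was the highest of 5 rows of the fatty acid transporter *Cd36*, at 18.8 ± 3.95 CPM in AdWT and 9.62 ± 1.53 CPM in AdKO (SD, n = 3), a log2FC of -0.97 (SE 0.200, edgeR adjusted *p* = 0.817). Markers of skeletal muscle and most tested markers of adipocytes were lower in AdKO beside it, but not those of every cell type. Of 5 tested macrophage genes 4 were higher and 1 lower in AdKO. Of 5 tested genes of fibroblasts and progenitors 3 were higher and 2 lower. All 7 tested genes of the skeletal muscle list were lower at an unadjusted *p* under 0.05, and the list summed to 178 CPM in AdWT replicate 2, where *Cd36* was also highest, against 19.7 and 35.3 CPM in the other AdWT libraries and 6.25 to 7.29 CPM in AdKO. Of 6 tested white adipocyte genes 5 were lower. The groups did not overlap for *Fabp4* (log2FC -0.23) and *Lep* (log2FC -0.46), against 11.9% of all rows tested. Of the 6, only *Lep* was at an unadjusted *p* under 0.05 in edgeR, and none had an adjusted *p* under 0.05. The part of muscle and adipocyte RNA in the level of this *Cd36* row was not tested, and the values are not those of the whole gene.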

How the data were processed

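The authors prepared libraries from iWAT RNA with the KAPA Stranded RNA-Seq Kit, mapped the reads with HISAT2 (genome mm9) and deposited a table of raw counts whose rows carry gene symbols. Their processing notes name DESeq2. The counting tool is not given in the sources used here. Of 37024 rows, 17470 were at 0 in all 6 libraries. A symbol with more than 1 row was represented by its highest row.

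Counts were compared between AdKO and AdWT (n = 3) with edgeR 4.0.16 (filterByExpr, TMM, glmQLFit and glmQLFTest, *p* adjusted over the 9872 rows tested by Benjamini-Hochberg, threshold 0.05) in R 4.3.3. Standard errors were taken as log2FC divided by the square root of F. Permutation tests and Pearson's *r* used log2 CPM with 0.5 added. DESeq2 1.42.0, 3 other scalings, 2 other filters, summed rows, the replicate number as a block and libraries left out were alternatives. The code was tested on simulated data. No 2 libraries were duplicates by a chi-square test. The common biological coefficient of variation was 0.196. The members, lists and the 2 libraries named by the selection were chosen with earlier results of these data known. Genes named were all members and the 3 rows most like each member with at least 60 counts. From the apolipoprotein and lipoprotein lists, genes at an unadjusted *p* under 0.05 and the 4 most abundant were named. Genes of the cell type lists were named where a result stood beside them, with no rule for which of them. *Lcat*, *Mttp*, *Apom*, *Apoa5* and the apolipoprotein genes at 0 were named after their values were seen. Coordinates of genes are from GENCODE vM1 (NCBIM37, the build called mm9), and promoters from RefSeq (GRCm38.p6). Python 3.11.15, pandas 2.3.3 and matplotlib 3.10.9 were used. Some genes that these rules select are not reported here. The qPCR, ChIRP-seq and snRNA-seq data were not used here.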

Additional observations from a re-analysis of the deposited data

How the results depend on the processing

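Rows called at an adjusted *p* under 0.05 numbered 0 of 9872 in edgeR (566 at an unadjusted *p* under 0.05), 27 in DESeq2, 1 with a filter of at least 1 count in any library, 1 without both replicates 3, and between 0 and 1 with single libraries omitted. The number of the 6 apolipoprotein genes at an unadjusted *p* under 0.05 was 1 with that filter (*Apoa4*) and 2 with the replicate block (*Apob* and *Apof*), and none had an adjusted *p* under 0.05 under any alternative, the lowest being 0.422. With the block the log2 fold change was -0.42 for *Apoa2*, -1.48 for *Apoa4*, -1.10 for *Apob*, -0.36 for *Apoh*, -0.90 for *Apof* and 0.04 for *Apol6*. What replicates of the same number share is not given in the sources used here. The deviations from the group means correlated at -0.10, -0.12 and 0.35 for replicates 1, 2 and 3. The highest of all pairs was AdWT replicate 1 with AdKO replicate 2 (0.45), and the pair of replicates 3 came next. Whether replicates of the same number shared a batch was not tested. The count at an unadjusted *p* under 0.05 was 845 with the filter of 1 count, and lay between 329 and 1208 when single libraries were omitted, being lowest without AdWT replicate 2 and highest without AdWT replicate 1. In the same fits the median log2 fold change of the 6 genes lay between -3.47 and 1.87, that of *Apoa2* between -3.19 and 1.98, *Apoa4* between -3.88 and 2.43, *Apob* between -3.74 and 1.64, *Apoh* between -3.04 and 2.30, *Apof* between -3.87 and 1.76 and *Apol6* between -0.11 and 0.26. The lowest values were without AdKO replicate 3 and the highest without AdWT replicate 3, except that the lowest of *Apol6* was without AdKO replicate 1. *Apoh* was also at 0.04 without AdKO replicate 1, and *Apol6* was lower in AdKO without AdWT replicate 1 (-0.09) or 2 (-0.07), and the cause was not tested. Without both replicates 3 *Apol6* was at 0.30. Under the scaling alternatives the direction of all 6 genes was kept. In all 5 liver-made genes the 2 highest libraries were unchanged with raw CPM and with rows summed. Leaving out both replicates 3, or requiring 10 counts in every library, gives no value for *Apoa4* and *Apof*. At 3 to 15 counts in 4 libraries, depth limits *Apof*.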

Other observations

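Rows that shared the order of the liver-made apolipoproteins were counted over the rows tested. The filter on low counts had removed some rows high only in AdWT replicate 3 and AdKO replicate 3, such as *Krt18* (173 and 333 counts). In 52 of 9872 rows (0.527%) both AdWT replicate 3 and AdKO replicate 3 were more than 2-fold above each of the other 4 libraries. These hold 4 of the 5 liver-made apolipoprotein genes, *Apoa4* falling short with 1.88-fold, and 9 genes of the hepatocyte list. AdWT replicate 3 was above AdKO replicate 3 in 48 of the 52, and below it in 4. *Apon*, which lies near *Apof* on the same chromosome and was chosen here after its values were seen, is among them with 11, 9 and 83 counts in AdWT and 3, 12 and 57 in AdKO. So are *Pon1*, an enzyme carried on HDL, and *Azgp1*, which fat as well as liver secretes, also named after their values were seen. *Azgp1* had 18, 48 and 426 counts in AdWT and 12, 27 and 269 in AdKO.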
